A study of Mus musculus with 6 samples.

Results

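Antioxidant and glutathione genes are described here as a set of 38 genes chosen by symbol: superoxide dismutases, glutathione peroxidases, peroxiredoxins, thioredoxins and glutaredoxins with their reductases, the enzymes of glutathione synthesis, glutathione transferases, and the transcription factor gene Nfe2l2 with its regulator and target genes. All 38 were found by Ensembl identifier among the 37620 identifiers of the count files, and all 38 were among the 12068 genes with enough counts to be tested. RNA was sequenced from mature brown fat cells, collected as the floating layer after collagenase digestion, of mice on a C57BL/6 background aged 6 weeks. One group was labelled wild type and the other knockout of Phospho1, a gene for a phosphatase of phosphocholine and phosphoethanolamine. Each group had 3 libraries, and each library was a pool of 3 mice. The labels do not say how the Phospho1 allele was made or name any treatment.

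Superoxide dismutases turn superoxide, a by-product of respiration, into hydrogen peroxide. Glutathione peroxidases and peroxiredoxins then reduce hydrogen peroxide and lipid peroxides, using electrons from glutathione or from thioredoxin, which are themselves reduced by NADPH through glutathione reductase and the thioredoxin reductases. Many of these enzymes exist in separate cytosolic and mitochondrial forms, and brown fat cells are rich in mitochondria. The transcription factor NRF2, encoded by Nfe2l2 and held in check by KEAP1, activates many of the genes for them.

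Library totals ran from 10576800 to 14239307 counts, and genes of the mitochondrial genome took 39.1% to 56.5% of them. Phospho1 itself had 13, 5 and 5 counts in wild-type libraries 1 to 3 and 18, 15 and 17 in those labelled knockout, so its counts did not fall there (log2 fold change 1.53, SE 0.46, edgeR adjusted p = 0.056). Directions in the text therefore refer to libraries by their label. All 10 brown adipocyte markers were detected, at 4.04% to 5.22% of nuclear counts in wild type and 4.34% to 5.65% in the knockout-labelled libraries. Of these 7 had log2 fold changes above 0 and 3 below. Cox7a1 was the 1 called higher (1.02, edgeR adjusted p = 0.045) and Dio2 the 1 called lower (-2.08, adjusted p = 0.018). Fabp4 held the most of these counts in every library and was level between the groups (0.01, adjusted p = 0.991). Long transcripts were lower and short ones higher in the knockout-labelled libraries across all genes, so fold changes of the 38 genes are also given from fits with offsets for the length and GC content of transcripts, by longest and by median transcript in that order where 2 values stand together. Phospho1 was at 1.01 with offsets by longest transcript (adjusted p = 0.198). Markers of other cell types differed between libraries. Skeletal muscle markers took 0.146% of nuclear counts in wild type 3 and at most 0.0150% in each other library. Endothelial markers summed to 0.114% to 0.158% in wild type and 0.139% to 0.155% in the knockout-labelled libraries (8 of 8 tested, median log2 fold change -0.80). Of these 1 was higher (Gpihbp1) and 3 lower (Flt1, Tek and Ptprb) past the threshold. Stromal markers summed to 0.187% to 0.207% in wild type and 0.222% to 0.276% in the knockout-labelled libraries (8 of 8 tested, 2 higher and 0 lower past the threshold). Mural cell markers summed to 0.173% to 0.277% and 0.0909% to 0.165% (7 of 7 tested, 3 higher and 1 lower). Rgs5 held the most mural counts in every library and did not pass (log2 fold change -0.98, edgeR adjusted p = 0.077). Acta2, Tagln and Myl9 were the 3 called higher and Abcc9 the 1 called lower, so the sum and the calls differed in direction. No marker of these lists was at 0 in every library. The part of these cells in the values of the 38 genes was not tested. In bulk RNA, fewer cells of a type and less RNA per cell cannot be told apart.

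In 7 of the 38 genes the promoter held the core letters of the antioxidant response element, the site that NRF2 binds with a small MAF partner. The letters searched were TGACNNNGC, on both strands, which reads GCNNNGTCA on the other strand, in windows of 250 bases before to 50 after each start site. They are shown to place the genes that carry this sequence among the values that follow. Each stretch is from RefSeq on GRCm38.p6, read 5′ to 3′ along the gene's strand, with the match in capitals. Sod1 lies at chr16:90220676-90220735 on the plus strand, Prdx1 at chr4:116685436-116685495 (plus), Srxn1 at chr2:152105542-152105570 (plus), Txnrd1 at chr10:82859084-82859143 (plus), Gclm at chr3:122245393-122245452 (plus), Nfe2l2 at chr2:75704874-75704913 (minus) and Mgst1 at chr6:138140441-138140500 (plus).
Sod1: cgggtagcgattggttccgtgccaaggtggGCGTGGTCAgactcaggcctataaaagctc
Prdx1: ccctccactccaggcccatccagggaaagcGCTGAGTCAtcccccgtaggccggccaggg
Srxn1: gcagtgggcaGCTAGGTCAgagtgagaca
Txnrd1: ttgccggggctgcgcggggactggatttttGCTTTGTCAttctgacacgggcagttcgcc
Gclm: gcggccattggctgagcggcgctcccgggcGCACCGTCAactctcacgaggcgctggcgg
Nfe2l2: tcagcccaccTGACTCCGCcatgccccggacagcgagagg
Mgst1: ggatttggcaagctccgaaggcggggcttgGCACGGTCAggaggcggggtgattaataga
The 7 matches were among 32 genes of the set with a window in the table (21.9%), and 14% of all 27025 genes with a window held the same letters. A match is a run of letters in this window and not a measured site, and no match says only that the letters are not in the window.

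Across the set, 1 gene passed the test in the knockout-labelled libraries, the mitochondrial thioredoxin Txn2, and none was lower. That is 2.63% of 38 higher, where 1.63% of all 12068 tested genes were higher, and 0 lower, where 7.52% of all were lower (edgeR quasi-likelihood test, adjusted p under 0.05). At an unadjusted p under 0.05, 13 were higher (34.2%, against 12.3% of all tested genes) and 0 lower (18.6% of all), and DESeq2 and limma-voom also called 0 lower. The count of 13 became 1 with total counts alone (2.63%, against 1.97% of all), 4 without wild type 1 (10.5%, against 5.12%), 21 without wild type 2 (55.3%, against 17%), 6 without knockout-labelled 3 (15.8%, against 6.61%) and 10 with offsets by longest transcript (26.3%, against 12%). DESeq2 called 4 higher, adding Prdx2, Prdx5 and Gstp1 (4.2% of all genes it tested were higher and 11.5% lower), and limma-voom called Txn2 alone (0.936% and 5.13%). At an adjusted p under 0.1 in edgeR, 6 were higher (15.8%, against 6.2% of all) and 0 lower (13.5% of all).

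The log2 fold change was above 0 for 34 of the 38 (89.5%), against 51.4% of all tested genes, with a median of 0.49 where the median over all genes was 0.03. Scaling moved this: with total counts alone in place of TMM scaling, the median over all genes shifted from 0.03 to -0.23, the set's median was 0.22, and 30 of 38 were above 0. With the length and GC offsets the set's median was 0.24 by longest transcript and 0.42 by median transcript (all genes, 0.03 and 0.06), and 27 and 35 genes were above 0. The groups did not overlap, with each knockout-labelled library above each wild-type one, for 10 genes (26.3%, against 15.9% of all tested genes): Sod1, Sod2, Prdx2, Prdx5, Txn2, Glrx2, Gsr, Gstk1, Gstp1 and Gsto1. Nfe2l2 was the only one of the 38 with every knockout-labelled library below every wild-type one (2.63%, against 19.6% of all).

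**Figure D1:**
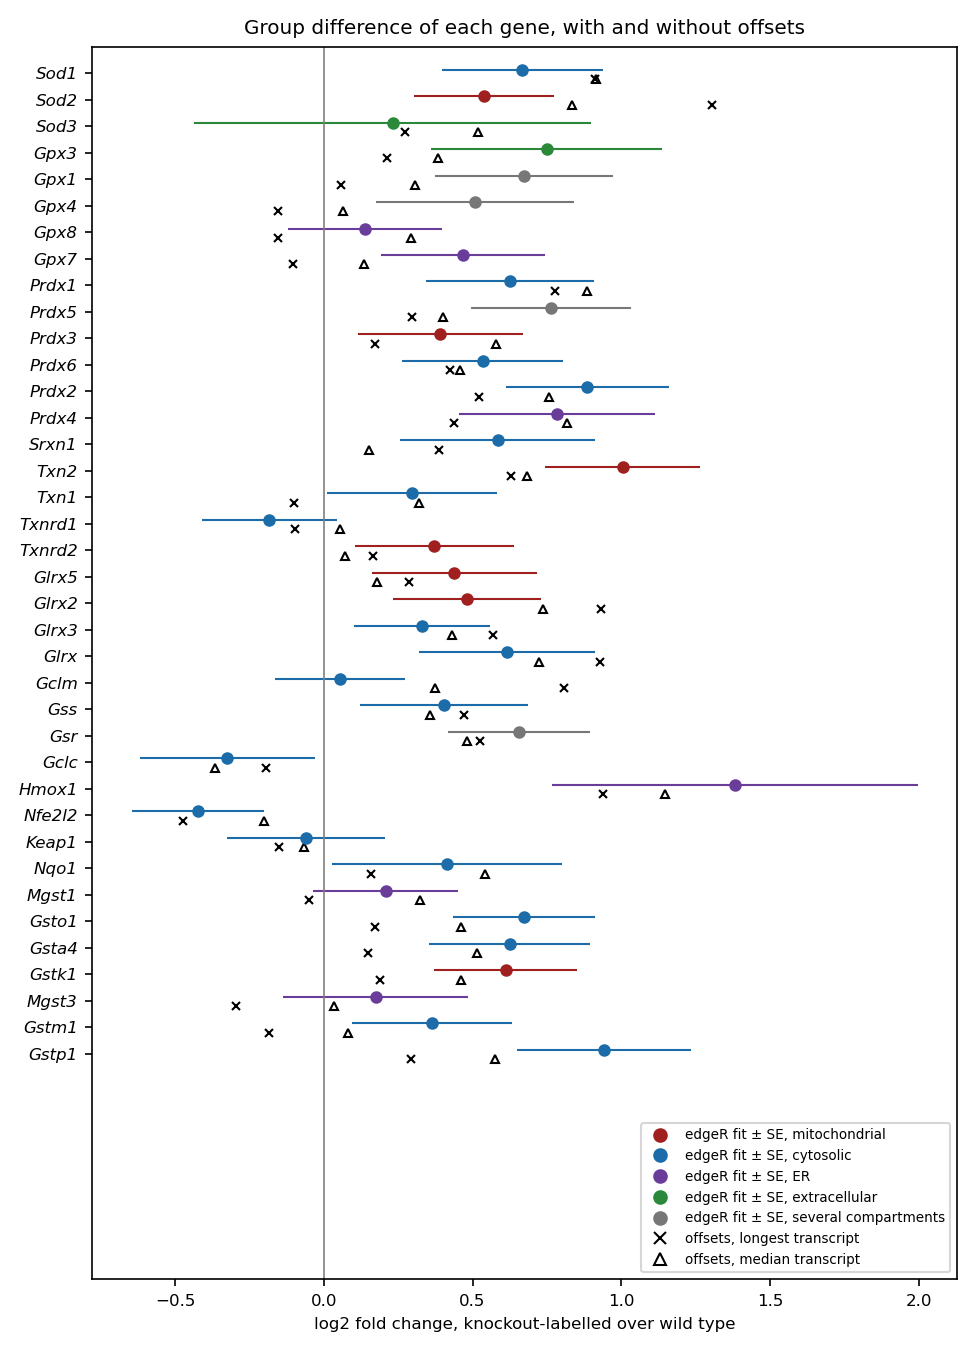
Log2 fold change of each of the 38 genes (knockout-labelled over wild type, horizontal axis), coloured by compartment, with bars for the standard error, and beside it the values with length and GC offsets by longest (crosses) and median transcript (triangles). Txn2 is at 1.00 and Nfe2l2 at -0.42, and the offsets by longest transcript move Sod2 to 1.30 and Gpx1 to 0.06.

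Superoxide dismutases took positive log2 fold changes in all 3 members, with a median of 0.54, and 0 of 3 passed the test in edgeR, DESeq2 or limma-voom, with 2 below 0.05 before adjustment in edgeR. Sod1, the cytosolic copper-zinc enzyme, measured 301, 440 and 419 CPM (counts scaled by the TMM-adjusted library size) in wild-type libraries 1 to 3 and 465, 565 and 813 CPM in knockout-labelled libraries 1 to 3. Every knockout-labelled library lay above every wild-type one, though knockout-labelled 1 was close to wild type 2. The means were 387 ± 75 and 614 ± 179 CPM (SD, n = 3 each), or 0.67 on the log2 fold scale (SE 0.27, edgeR adjusted p = 0.122) that became 0.91 with either offset.

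Sod2, the manganese enzyme of the mitochondrial matrix, measured 486, 724 and 575 CPM in the wild-type libraries and 861, 811 and 920 CPM in those labelled knockout. The groups did not overlap, and the knockout-labelled libraries lay close together. The means were 595 ± 120 and 864 ± 54.7 CPM (log2 fold change 0.54, SE 0.23, edgeR adjusted p = 0.146). Its longest transcript, 5861 bases, is the longest among the 38 genes, and its value depended on the length used, at 1.30 with offsets by longest transcript and 0.83 by median transcript. Stretches of its transcripts matched 10 other genes over at least 200 bases at 90% identity or more, and the deposited counts do not say how such reads were assigned.

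Sod3, the secreted enzyme bound to the extracellular matrix, did not follow the groups. It measured 22.0, 23.8 and 81.9 CPM in the wild-type libraries and 16.6, 64.2 and 68.8 CPM in those labelled knockout. Wild type 3 and knockout-labelled 2 and 3 were high and the others low, so both groups spanned the whole range (log2 fold change 0.23, SE 0.67, edgeR adjusted p = 0.833, with offsets 0.27 and 0.52). With 1 library left out the value ran from -0.087 (without wild type 1) to 1.11 (without wild type 3).

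**Figure D2:**
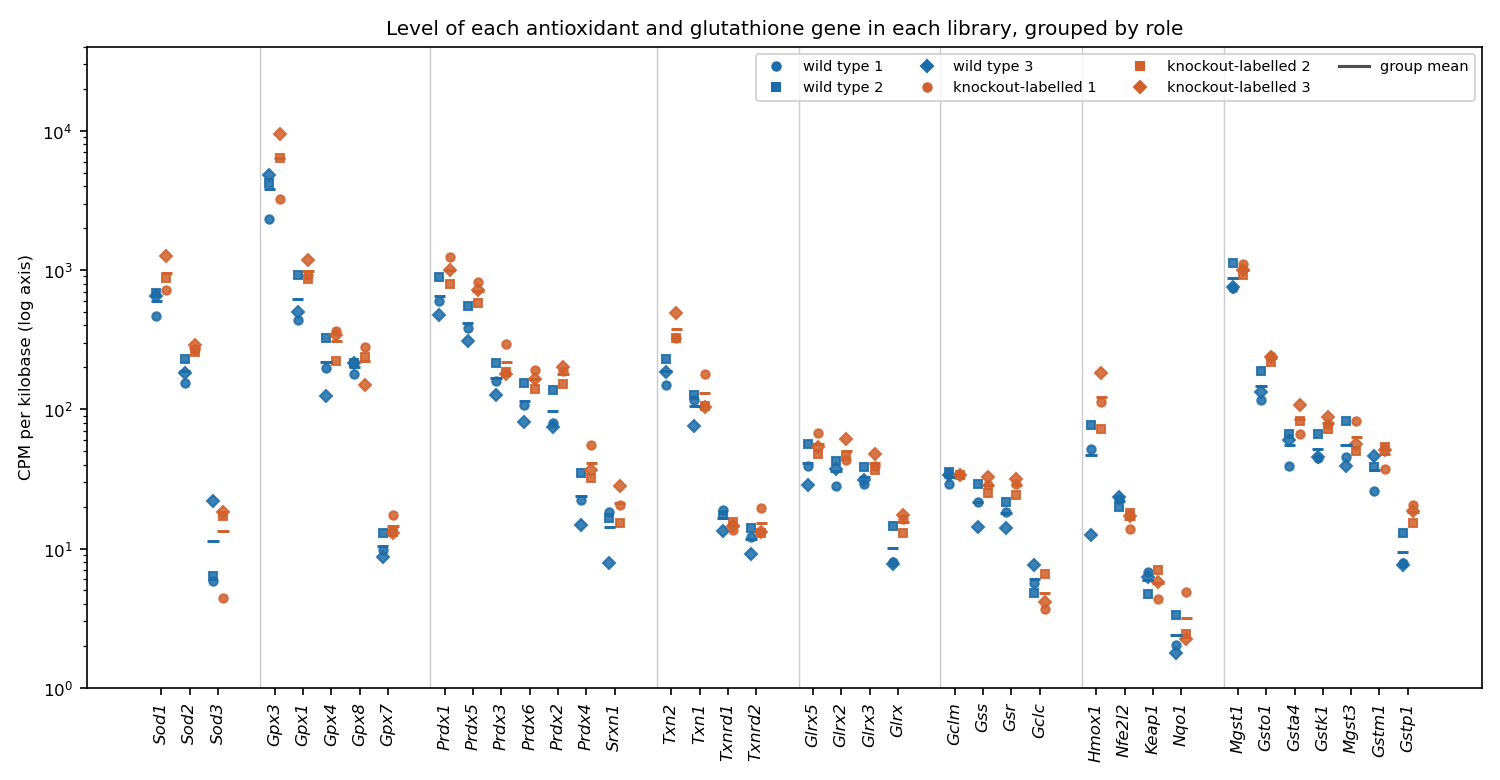
CPM per kilobase of median protein-coding transcript length (log axis) of each gene in each of the 6 libraries, grouped by role, with a dash at each group mean. Gpx3 is highest and Nqo1 lowest in both groups, and Sod3 is split between high and low libraries within each group.

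Glutathione peroxidases, which reduce peroxides with glutathione, had 5 of 5 positive log2 fold changes with a median of 0.51, and 0 passed the test in edgeR, DESeq2 or limma-voom, with 1 below 0.05 before adjustment in edgeR. Gpx3, the secreted plasma form, was the most abundant gene of the set per length, at 3801 ± 1302 CPM per kilobase in wild type and 6395 ± 3146 in the knockout-labelled libraries. In CPM it measured 1937, 3512 and 4003 in wild type and 2689, 5311 and 7904 in the knockout-labelled libraries. Knockout-labelled 1 lay below wild type 2 and 3, so the groups overlapped (log2 fold change 0.75, SE 0.39, edgeR adjusted p = 0.210, and 0.21 or 0.38 with the offsets by longest or median transcript).

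Gpx1, the widespread enzyme found in cytosol and mitochondria, measured 346, 726 and 397 CPM in the wild-type libraries and 730, 677 and 936 CPM in those labelled knockout. Wild type 2 lay among the knockout-labelled libraries and the other wild-type libraries far below them. The means of 490 ± 206 and 781 ± 137 CPM gave 0.67 on the log2 fold scale (SE 0.30, edgeR adjusted p = 0.151), which fell to 0.06 and 0.30 with the offsets by longest and median transcript. Gpx4, which removes lipid peroxides from membranes, was at 0.51 (adjusted p = 0.312), and the endoplasmic reticulum forms Gpx7 and Gpx8 were at 0.47 and 0.14 (adjusted p = 0.264 and 0.735). With offsets by longest transcript these 3 turned to -0.15, -0.10 and -0.15, and with total counts alone Gpx8 turned to -0.08, so their direction is not settled.

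Peroxiredoxins and the sulfiredoxin gene Srxn1 had 7 of 7 positive log2 fold changes, with a median of 0.62, and stayed positive with total counts alone and with either offset. In edgeR 0 of 7 passed the test (4 at an unadjusted p under 0.05, and 0 by limma-voom), while DESeq2 called 2. Prdx1, the most abundant of them and a cytosolic enzyme, measured 394, 589 and 314 CPM in the wild-type libraries and 820, 522 and 658 CPM in those labelled knockout. Wild type 2 exceeded knockout-labelled 2, so the groups overlapped (432 ± 141 and 667 ± 149 CPM, log2 fold change 0.62, SE 0.28, edgeR adjusted p = 0.158, with offsets 0.78 and 0.89).

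Prdx2, a cytosolic enzyme that is also one of the abundant proteins of red blood cells, measured 119, 205 and 112 CPM in the wild-type libraries and 280, 227 and 300 CPM in those labelled knockout. The groups did not overlap, and wild type 2 was the nearest to the knockout-labelled libraries. Its means were 146 ± 52 and 269 ± 37.9 CPM, or 0.89 on the log2 fold scale (SE 0.27, edgeR adjusted p = 0.062) and of 0.52 and 0.76 with the offsets. The libraries had the same order for Prdx2 as for the median of the whole set, each gene taken relative to its mean over the libraries. Markers of red blood cell precursors were also higher, with wild type 2 above knockout-labelled 2 in their sum. Of these 5 of 7 were tested and all 5 had an unadjusted p under 0.05 in edgeR, higher, of which Hba-a1 and Alas2 passed the test. The summed share of these markers ran from 0.0736% to 0.260% of nuclear counts in wild type and from 0.235% to 0.644% in the knockout-labelled libraries. No marker was at 0 in every library, and the part of the markers in the Prdx2 values was not tested.

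Prdx5, which is sent to mitochondria, peroxisomes and cytosol, measured 277, 399 and 221 CPM in the wild-type libraries and 592, 417 and 515 CPM in those labelled knockout. The groups did not overlap, though wild type 2 came close to knockout-labelled 2. The means were 299 ± 91 and 508 ± 87.8 CPM (log2 fold change 0.76, SE 0.27, edgeR adjusted p = 0.087, with offsets 0.30 and 0.40). Exons of Trmt112 on the opposite strand cover 19.1% of its exonic bases, and since the strand setting of the counting is not given, reads there cannot be assigned to one of the genes with certainty.

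Prdx4, the peroxiredoxin of the endoplasmic reticulum, measured 21.6, 33.7 and 14.2 CPM in the wild-type libraries and 53.2, 31.0 and 35.4 CPM in those labelled knockout. Wild type 2 again lay above knockout-labelled 2 (log2 fold change 0.78, SE 0.33, edgeR adjusted p = 0.135, with offsets 0.44 and 0.82). The mitochondrial Prdx3 was at 0.39, Prdx6, which also acts on phospholipid peroxides, at 0.53, and Srxn1, which repairs over-oxidised peroxiredoxins, at 0.58 (adjusted p = 0.349, 0.200 and 0.244), and in all 3 the groups overlapped. With offsets Prdx3 was at 0.17 and 0.58, Prdx6 at 0.42 and 0.46, and Srxn1 at 0.39 and 0.15.

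Thioredoxins and their reductases held the 1 gene of the set that passed. Txn2 (ENSMUSG00000005354), the thioredoxin of mitochondria, measured 148, 228 and 184 CPM in the wild-type libraries and 319, 321 and 485 CPM in those labelled knockout. Each knockout-labelled library stood well above each wild-type one. Txn2 rose from 187 ± 40.1 to 375 ± 95 CPM, or 1.00 on the log2 fold scale (SE 0.26, edgeR adjusted p = 0.039; DESeq2 0.0054, limma-voom 0.0475). The call was lost with offsets by longest transcript (0.63, adjusted p = 0.114) or median transcript (0.68, adjusted p = 0.091) and with total counts alone (0.72, adjusted p = 0.141). It was also lost without wild type 1 (0.86, adjusted p = 0.193), wild type 3 (0.98, 0.090), knockout-labelled 2 (1.10, 0.063) or knockout-labelled 3 (0.77, 0.127). Few genes of the whole table were called higher in those fits: 1 gene with offsets by longest transcript, 0.688% by median transcript and 0.24% with total counts alone. Without wild type 1, wild type 3, knockout-labelled 2 or knockout-labelled 3 the shares were 0%, 0.25%, 0.378% and 0.0161%.

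The other thioredoxin genes differed less between the groups. Txn1, the cytosolic form, was at 0.30 (edgeR adjusted p = 0.487), and the reductases, selenoproteins that pass electrons from NADPH to thioredoxin, were at -0.18 for cytosolic Txnrd1 and 0.37 for mitochondrial Txnrd2 (adjusted p = 0.591 and 0.356). In all 3 the groups overlapped, and Txn1 turned to -0.10 with offsets by longest transcript and Txnrd1 to 0.05 by median transcript, while Txnrd2 was at 0.16 and 0.070. So of 4 genes, 1 rose, 3 did not pass and the median log2 fold change was 0.33.

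Glutaredoxins, small oxidoreductases that depend on glutathione, had 4 of 4 positive log2 fold changes with a median of 0.46, also with total counts alone (0.19) and with the offsets (0.75 and 0.58 by longest and median transcript). In edgeR 0 passed and 0 had an unadjusted p under 0.05, and DESeq2 and limma-voom also called 0. Glrx5, a mitochondrial protein of iron-sulfur cluster assembly and the most abundant of them per length, measured 72.2, 105 and 53.4 CPM in the wild-type libraries and 126, 88.6 and 99.1 CPM in those labelled knockout. Wild type 2 lay above knockout-labelled 2 and 3, so the groups overlapped (log2 fold change 0.44, SE 0.28, adjusted p = 0.293, with offsets 0.29 and 0.18). Glrx, Glrx2 and Glrx3 were at 0.61, 0.48 and 0.33 (adjusted p = 0.182, 0.210 and 0.335), and of these only Glrx2, in which a sequence stretch matches Abcc1, had groups that did not overlap. With offsets Glrx was at 0.93 and 0.72, Glrx2 at 0.93 and 0.74, and Glrx3 at 0.57 and 0.43.

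The enzymes that make and reduce glutathione did not move together. Gclm, the modifier subunit of glutamate-cysteine ligase, which makes the first and limiting step of glutathione synthesis, measured 29.2, 35.6 and 33.6 CPM in the wild-type libraries and 34.0, 34.1 and 34.1 CPM in those labelled knockout. The knockout-labelled libraries lay inside the wild-type range (32.8 ± 3.28 and 34.0 ± 0.0433 CPM, log2 fold change 0.05, SE 0.22, edgeR adjusted p = 0.881). Its longest transcript is 5589 bases, and with offsets it was at 0.81 by longest and 0.37 by median transcript, while with total counts alone it turned to -0.20. Gclc, the catalytic subunit, was at -0.33 (adjusted p = 0.459), and glutathione synthetase Gss at 0.40 (adjusted p = 0.343). With offsets Gclc was at -0.19 and -0.37, and Gss at 0.47 and 0.36.

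Gsr, glutathione reductase, measured 48.6, 57.9 and 37.7 CPM in the wild-type libraries and 77.3, 65.3 and 85 CPM in those labelled knockout. The groups did not overlap. The means were 48.1 ± 10.1 and 75.9 ± 9.95 CPM, or 0.66 on the log2 fold scale (SE 0.24, edgeR adjusted p = 0.096) and of 0.53 and 0.48 with the offsets. Of the 4 enzymes 0 passed in edgeR, DESeq2 and limma-voom, and Gsr was the 1 with an unadjusted p under 0.05 in edgeR.

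Nfe2l2, its repressor Keap1 and its classic target genes Nqo1 and Hmox1 had mixed directions, 2 above 0 and 2 below, and 0 of 4 passed in edgeR (0 at an unadjusted p under 0.05), DESeq2 or limma-voom. Nfe2l2 measured 55.9, 48.9 and 57.6 CPM in the wild-type libraries and 34.3, 44.4 and 42.2 CPM in those labelled knockout. All 3 knockout-labelled libraries were below all 3 wild-type ones (54.1 ± 4.64 and 40.3 ± 5.29 CPM, log2 fold change -0.42, SE 0.22, edgeR adjusted p = 0.214, with offsets -0.47 and -0.20). Keap1, the adaptor that sends NRF2 to degradation, measured 21.6, 14.8 and 19.6 CPM in the wild-type libraries and 13.7, 22.0 and 18 CPM in those labelled knockout, with overlap (-0.06, adjusted p = 0.894, with offsets -0.15 and -0.066).

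Nqo1, a quinone reductase often used as a readout of NRF2, was the lowest of the 38 genes per length. It measured 3.15, 5.18 and 2.78 CPM in the wild-type libraries and 7.59, 3.77 and 3.47 CPM in those labelled knockout. Knockout-labelled 1 was high and the other libraries overlapped (log2 fold change 0.41, SE 0.39, edgeR adjusted p = 0.475, with offsets 0.16 and 0.54), and without knockout-labelled 1 it turned to -0.03.

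Hmox1, haem oxygenase 1, which breaks down haem and is also high in macrophages that clear red blood cells, had the largest log2 fold change of the 38. It measured 81.1, 122 and 19.7 CPM in the wild-type libraries and 178, 114 and 288 CPM in those labelled knockout. Wild type 3 was far below the rest and wild type 2 was above knockout-labelled 2 (74.1 ± 51.3 and 193 ± 88 CPM, log2 fold change 1.38, SE 0.62, edgeR adjusted p = 0.174, with offsets 0.94 and 1.15). The summed erythroid markers had the same order over the 6 libraries, at 0.168%, 0.260% and 0.0736% of nuclear counts in wild type and 0.497%, 0.235% and 0.644% in the knockout-labelled libraries. Glrx had this order too. Gpx4, Prdx1, Prdx4 and Prdx6 differed from it only in that knockout-labelled 1 lay above knockout-labelled 3, so the order was not particular to Hmox1. The 9 macrophage markers, all tested, summed to 0.0241% to 0.0443% in wild type and 0.0465% to 0.0946% in the knockout-labelled libraries. Most of these counts were from Lyz2, with 2812, 2354 and 760 in wild type and 4426, 2403 and 4487 in the knockout-labelled libraries. No other macrophage marker held more than 292 counts in a library. Lyz2 was the 1 called higher (1.43, edgeR adjusted p = 0.040) and Cd163 the 1 called lower (-2.44, adjusted p = 0.048). Of the 9, 6 had log2 fold changes above 0 and 3 below. The part of the erythroid or macrophage markers in the Hmox1 values was not tested.

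Glutathione transferases, which join glutathione to electrophiles or act as peroxidases, had 7 of 7 positive log2 fold changes with a median of 0.61, and 0 passed in edgeR or limma-voom (4 at an unadjusted p under 0.05 in edgeR), while DESeq2 called 1. With offsets by longest transcript the median was 0.15 and 4 of 7 were above 0, and by median transcript 0.46 and 7 of 7. Mgst1, a microsomal enzyme and the second most abundant gene of the set per length, measured 613, 925 and 629 CPM in the wild-type libraries and 919, 761 and 824 CPM in those labelled knockout. Wild type 2 was the highest library of all (log2 fold change 0.21, SE 0.24, edgeR adjusted p = 0.571), and the direction turned with total counts alone (-0.05).

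Gstp1, the pi-class enzyme, measured 6.30, 10.5 and 6.09 CPM in the wild-type libraries and 16.6, 12.4 and 15.1 CPM in those labelled knockout. The groups did not overlap (7.63 ± 2.48 and 14.7 ± 2.14 CPM, log2 fold change 0.94, SE 0.29, edgeR adjusted p = 0.062, with offsets 0.29 and 0.58). Its neighbour Gstp2 is 98.2% identical over 707 bases and held 73 counts where Gstp1 held 821, so reads could be split between them and the value is uncertain.

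Gsto1, the omega-class enzyme, measured 91.4, 148 and 105 CPM in the wild-type libraries and 189, 172 and 187 CPM in those labelled knockout. All knockout-labelled libraries were higher and close together (115 ± 29.6 and 183 ± 9.03 CPM, log2 fold change 0.67, SE 0.24, edgeR adjusted p = 0.090, with offsets 0.17 and 0.46). Gstk1, the kappa-class enzyme of mitochondria and peroxisomes, measured 41.4, 62.1 and 42.1 CPM in the wild-type libraries and 73.1, 67.2 and 82.1 CPM in those labelled knockout. The groups again did not overlap (log2 fold change 0.61, SE 0.24, adjusted p = 0.115, with offsets 0.19 and 0.46).

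Gsta4, which conjugates the lipid peroxidation product 4-hydroxynonenal, measured 33.6, 57.4 and 51.6 CPM in the wild-type libraries and 57.3, 71.0 and 91.7 CPM in those labelled knockout. Knockout-labelled 1 and wild type 2 were level (log2 fold change 0.62, SE 0.27, edgeR adjusted p = 0.143, with offsets 0.15 and 0.52). Gstm1, whose relative Gstm2 is 92.7% identical over 219 bases, was at 0.37 (adjusted p = 0.365), and Mgst3 at 0.17 (adjusted p = 0.718). With offsets by longest transcript these turned to -0.18 and -0.29, and Mgst3 turned to -0.08 with total counts alone.

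By level per kilobase over all 6 libraries, Gpx3 led with a mean of 5098 CPM per kilobase, followed by Mgst1 (941), Prdx1 (831), Gpx1 (807), Sod1 (781), Prdx5 (563), Txn2 (285), Gpx4 (263), Sod2 (231) and Gpx8 (213). Mgst1, Prdx1, Gpx1 and Sod1 lay within each other's spread between libraries, and their order is not resolved, while Gpx3 stood apart in every library. Gclc (5.41), Keap1 (5.80) and Nqo1 (2.78) were the lowest. The first 5 places were held by the same genes in both groups, with Prdx1 ahead of Mgst1 in the knockout-labelled libraries. The order depended on the length used. By longest transcript Gpx3 (2651), Mgst1 (667) and Gpx1 (592) led, followed by Gpx4 (253) and Prdx1 (240), while Sod1 (126) was at rank 11 and Sod2 (124) at rank 13.

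As a share of all nuclear counts, the 38 genes summed to 1.34%, 1.91% and 1.69% in wild type and 1.85%, 2.30% and 2.94% in the knockout-labelled libraries. Wild type 2 lay above knockout-labelled 1. The extracellular members Gpx3 and Sod3 took 0.412%, 0.667% and 0.822% of nuclear counts in wild type and 0.476%, 1.04% and 1.47% in the knockout-labelled libraries, a wide range within each group. The 7 mitochondrial members alone summed to 0.217%, 0.283% and 0.220% in wild type and 0.332%, 0.316% and 0.355% in the knockout-labelled libraries, which did not overlap. The 19 cytosolic members summed to 0.336%, 0.418% and 0.311% and to 0.474%, 0.445% and 0.529%, which did not overlap either. The 4 members of several compartments summed to 0.182%, 0.282% and 0.156% and to 0.307%, 0.267% and 0.343%, with overlap. The 6 of the endoplasmic reticulum summed to 0.197%, 0.259% and 0.182% and to 0.265%, 0.230% and 0.250%, also with overlap.

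The mitochondrial and cytosolic members thus had similar medians, with log2 fold changes of 0.48 and 0.41, and the ratio within each pair was compared directly. The log2 ratio of Txn2 to Txn1, in counts per kilobase, was 0.36, 0.88 and 1.31 in wild type and 0.84, 1.61 and 2.23 in the knockout-labelled libraries. Library 3 was highest in both groups and the groups overlapped (difference 0.71, exact two-sided permutation p = 0.3, adjusted p = 0.5 over 5 pairs). For Txnrd2 to Txnrd1 it was -0.64, -0.29 and -0.55 in wild type and 0.52, -0.24 and -0.15 in the knockout-labelled libraries. All knockout-labelled libraries lay above, knockout-labelled 2 by little (difference 0.54, exact permutation p = 0.1, the smallest that 3 against 3 allow, adjusted p = 0.25). With offsets by longest transcript the groups overlapped and the difference was 0.23 (exact permutation p = 0.5), and without knockout-labelled 1 it was 0.30.

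For Sod2 to Sod1 the log2 ratio was -1.61, -1.58 and -1.84 in wild type and -1.41, -1.78 and -2.12 in the knockout-labelled libraries. The groups overlapped (difference -0.093, exact permutation p = 0.8, adjusted p = 0.8), and the sign turned with offsets by longest transcript (0.45). The level of this ratio depended on the length: by longest transcript it was 0.13, 0.16 and -0.10 in wild type and 0.33, -0.042 and -0.38 in the knockout-labelled libraries, with the same difference between the groups. For Prdx3 to Prdx1 it was -1.90, -2.06 and -1.90 in wild type and -2.08, -2.10 and -2.48 in the knockout-labelled libraries. The knockout-labelled libraries were lower, by little in 2 of 3 (difference -0.26, exact permutation p = 0.1, adjusted p = 0.25). The difference was -0.62 with offsets by longest transcript and -0.13 without knockout-labelled 3. For Glrx2 to Glrx the difference was -0.18 (exact permutation p = 0.5, adjusted p = 0.625), with overlap. None of the 5 pairs passed, and with 3 against 3 none could.

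**Figure D3:**
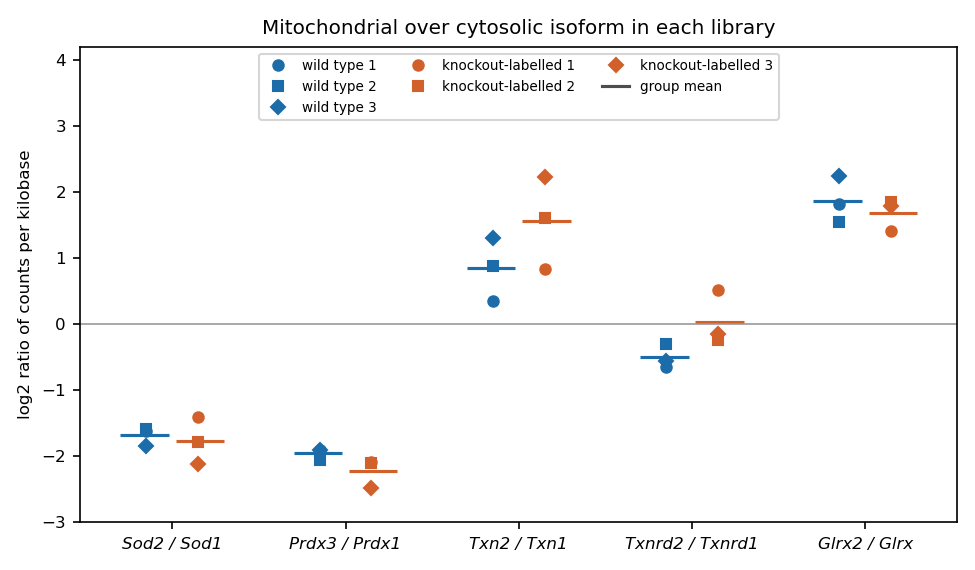
Log2 ratio of the mitochondrial to the cytosolic isoform (counts per kilobase) in each library for 5 pairs, with a line at each group mean. Txnrd2 over Txnrd1 is above the wild-type libraries in all 3 knockout-labelled ones, and Txn2 over Txn1 overlaps, from 0.36 to 1.31 and from 0.84 to 2.23.

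Transcript length moved with the fold changes. The median longest transcript was 1937.5 bases for the 38 genes and 3273 bases for all tested genes, and 28 of the 38 were shorter than the latter. Those 28 had a median log2 fold change of 0.56, where all shorter genes had 0.34, and the 10 longer ones had 0.28, where all longer genes had -0.38. With offsets by longest transcript the medians of the 28 and the 10 were 0.18 and 0.69. Spearman's rho of log2 fold change with length was -0.26 across the 38 genes and -0.58 across 11863 tested genes with a length, which are not independent replicates. Across the 38 it was 0.49 with offsets by longest transcript and 0.01 by median transcript.

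**Figure D4:**
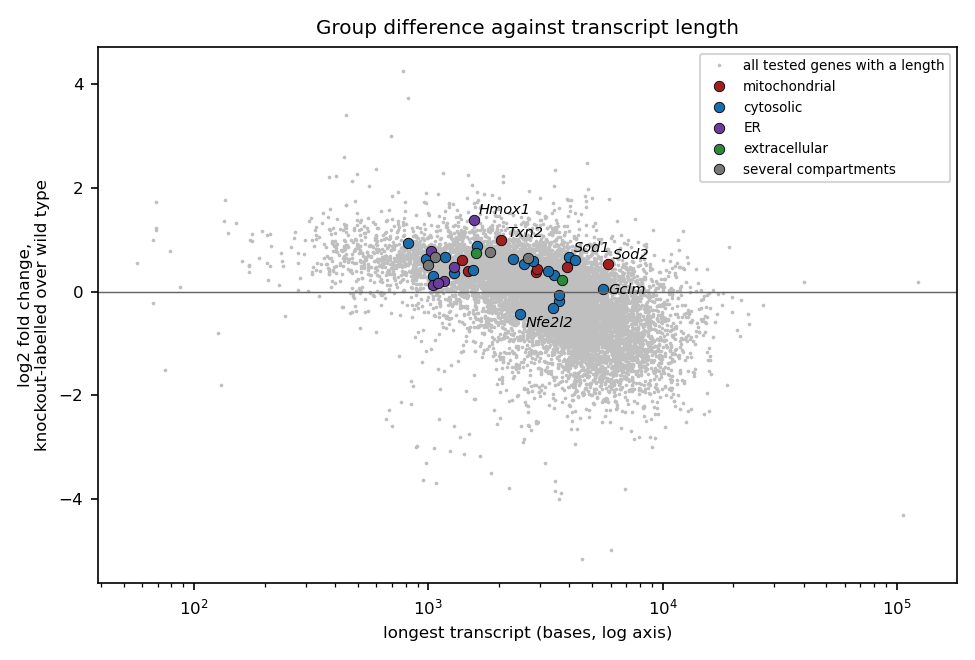
Log2 fold change (knockout-labelled over wild type) against the length of the longest transcript (log axis) for all tested genes with a length (grey) and the 38 genes coloured by compartment. Short genes lie above 0 and long genes below on average, and Sod2 and Gclm, with the longest transcripts of the 38, lie at 0.54 and 0.05.

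The libraries of a group differed from each other in a way that many of the 38 genes shared. Within wild type, library 2 was the highest for 29 of the 38 and library 3 the lowest for 20. Within the knockout-labelled group, libraries 1 and 3 were each the highest for 16 and library 2 the lowest for 21. The median deviation of the 38 genes from their mean over all libraries was -0.33, 0.08 and -0.52 (log2) in wild type and 0.34, 0.11 and 0.38 in the knockout-labelled libraries. The slope on log2 length over all genes had nearly the reverse order, at 0.306, -0.025 and 0.30 in wild type and -0.238, -0.093 and -0.249 in the knockout-labelled libraries, and its part in these values was not tested beyond the offsets. Without wild type 2, whose levels lay nearest to the knockout-labelled libraries, 10 of the 38 were called higher (Gpx1, Prdx1, Prdx2, Prdx4, Prdx5, Txn2, Glrx, Gstk1, Gstp1 and Gsto1; 5.58% of all tested genes were called higher in that fit). Without wild type 1, wild type 3, knockout-labelled 2 or knockout-labelled 3, 0 were called. In those fits 0%, 0.25%, 0.378% and 0.0161% of all tested genes were called higher, so few calls were made in the whole table.

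**Figure D5:**
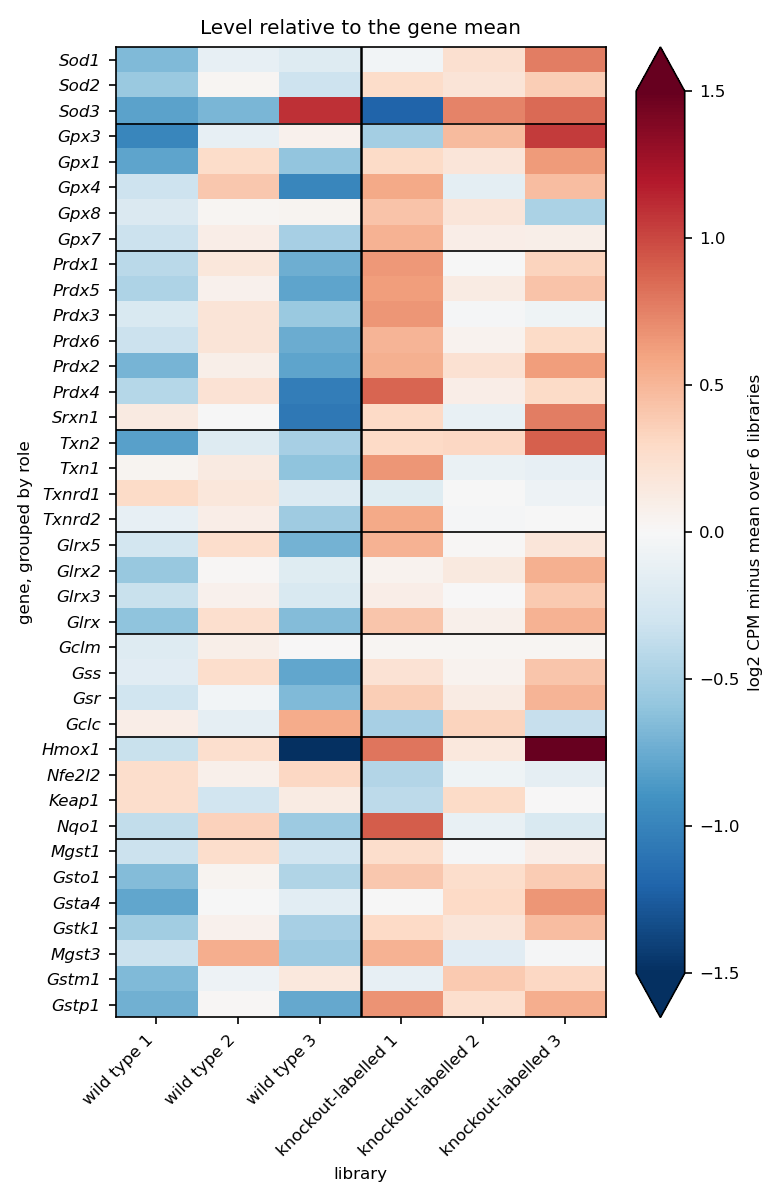
Log2 CPM of each gene minus its mean over the 6 libraries (colour, cut at 1.5 in either direction), with genes in rows grouped by role and libraries in columns. Most genes are low in wild type 1 and 3, with median deviations of -0.33 and -0.52, and wild type 2 lies nearer to the knockout-labelled libraries at 0.08.

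The 7 genes with the response-element letters had a median log2 fold change of 0.21, from -0.42 for Nfe2l2 to 0.67 for Sod1, and the 25 with a window but no match had a median of 0.48. Both medians are without offsets. With offsets by longest transcript Sod1, Prdx1 and Gclm rose and Srxn1, Mgst1 and Nfe2l2 fell. The median of the whole set fell from 0.49 to 0.24 with them, so which group had the higher median is not settled. Among the 7, Prdx1 was at 0.62, Srxn1 at 0.58, Mgst1 at 0.21, Gclm at 0.05 and Txnrd1 at -0.18, so these promoters did not share a direction, and 0 of the 7 passed in edgeR. For 6 genes, Gclc, Gsr, Gsta4, Hmox1, Prdx6 and Sod3, no window was in the table.

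Among 119 tested genes of 5 related lists, 1 was higher and 5 were lower, where 1.63% of all tested genes were higher and 7.52% lower, so calls were no more frequent in these lists than in the whole table. Of 23 other NRF2 pathway genes 3 fell (7.52% of all tested genes did) and 0 rose: Cul3, the scaffold of the ligase that degrades NRF2 (log2 fold change -1.27, edgeR adjusted p = 0.017), Gsk3b, a kinase that marks NRF2 for another ligase (-1.22, adjusted p = 0.028), and Bach1, a repressor at NRF2 target sites (-1.32, adjusted p = 0.029). They were at -0.42, -0.45 and -0.75 with offsets by longest transcript and did not pass. With those offsets 1 gene of the whole table was called higher and 0 lower. Rbx1 of the same list went the other way and did not pass (0.78, edgeR adjusted p = 0.067, and 1.04 with offsets by longest transcript). Of the 23 genes 14 had log2 fold changes above 0 and 9 below. The list's median was 0.32, and 0.062 with total counts alone and 0.14 with offsets by longest transcript. In edgeR 3 of the 23 were higher and 6 lower at an unadjusted p under 0.05, where 12.3% and 18.6% of all tested genes were. DESeq2 called 1 higher and 3 lower, and limma-voom called 0 higher and 3 lower.

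Of 19 sources of hydrogen peroxide and superoxide, 2 fell and 1 rose (7.52% and 1.63% of all tested genes), with a list median of -0.18, which was -0.46 with total counts alone and -0.076 with offsets by longest transcript. Aox1, aldehyde oxidase, was at -1.51 (edgeR adjusted p = 0.023), Xdh, xanthine dehydrogenase, at -1.34 (adjusted p = 0.029), and Smox, spermine oxidase, at 1.19 (adjusted p = 0.034). They were at -0.84, -0.72 and 0.86 with offsets by longest transcript and did not pass, where 1 gene of the whole table was called higher and 0 lower. By median transcript Xdh passed (-1.57, edgeR adjusted p = 0.049) and Aox1 and Smox did not (-0.72 and 0.94, adjusted p = 0.102 and 0.074). In that fit 0.688% of all tested genes were called higher and 1.17% lower. Without wild type 1 or knockout-labelled 3, 0 of the 6 called genes of these 2 lists passed. In those 2 fits 0 and 2 genes of the whole table were called higher, and 0 and 0 lower. Without wild type 3 Cul3 alone passed (-1.26, edgeR adjusted p = 0.034), where 0.25% of all tested genes were called higher and 2.95% lower. Without knockout-labelled 2 Aox1, Cul3 and Gsk3b passed (adjusted p = 0.047, 0.048 and 0.048), where 0.378% were called higher and 2.07% lower.

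The other 3 lists gave no call in edgeR. At an unadjusted p under 0.05, 12.3% of all tested genes were higher and 18.6% lower, which is the background for the counts that follow. Of 17 genes that supply NADPH, with a median of 0.05 (-0.20 with total counts alone, -0.027 with offsets by longest transcript), 1 higher and 1 lower had an unadjusted p under 0.05 and DESeq2 and limma-voom called 0. Shmt2, a mitochondrial one-carbon enzyme, was at 0.70, the folate dehydrogenase Aldh1l1 at -0.82 and malic enzyme Me1 at -0.52 (edgeR adjusted p = 0.091, 0.096 and 0.168), and with those offsets at 0.32, -0.76 and -0.28. Of 20 selenoproteins and genes for making them, with a median of 0.40 (0.15 with total counts alone, 0.083 with offsets by longest transcript), 2 higher and 1 lower had an unadjusted p under 0.05 and DESeq2 called 1 lower and limma-voom 0. Sepsecs, which makes selenocysteine on its transfer RNA, was at -0.79, and the small selenoproteins Selenow and Selenom were at 0.70 and 0.83 (adjusted p = 0.056, 0.095 and 0.105). With those offsets Sepsecs was at -0.16 and Selenom at 0.28, and Selenow turned to -0.015. Of 40 other redox and glutathione genes, with a median of 0.38 (0.12 with total counts alone, 0.16 with offsets by longest transcript), 9 higher and 2 lower had an unadjusted p under 0.05 and DESeq2 called 3 higher and 1 lower and limma-voom 0. The 9 higher became 0 with total counts alone and 5 with those offsets. Among them the methionine sulfoxide reductase Msrb3 was at -0.91, and the transferases Gstm5 and Gstt1 were both at 0.85 (adjusted p = 0.055, 0.066 and 0.067), and with those offsets they were at -0.61, 0.37 and 0.24. Catalase, Cat, the peroxisomal enzyme that breaks down hydrogen peroxide, had a mean of 777 ± 370 CPM across the wild-type libraries and of 653 ± 185 CPM across those labelled knockout (log2 fold change -0.25, adjusted p = 0.624, with those offsets -0.35).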

How the data were processed

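Each library has 1 file deposited by the authors, with the raw count of reads for each Ensembl gene as whole numbers. The submitters' processing notes name STAR 2.5.4b and build mm9. Which program counted the reads, with what strand setting and annotation, is not given in the sources used here. The labels gave each library's group and number, and p-values measure the spread between pools. The fit used edgeR 4.0.16 under R 4.3.3: filterByExpr (minimum count 10, minimum total 15), TMM scaling, a two-sided robust quasi-likelihood test of group, and Benjamini-Hochberg adjustment over all 12068 tested genes with a threshold of 0.05. Standard errors came from the F statistic. Levels are CPM computed from the deposited counts. Symbols and transcript lengths came from GENCODE release M21 on GRCm38, matched by identifier.

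Offsets were fitted per library by smooth terms of log2 length and GC content (basis size 6, prior count 2, mgcv 1.9.3). Isoform ratios used a prior of 0.5 counts and an exact permutation test. Near-identical copies were sought by BLAST at 90% identity over 200 bases or more. The alternatives were RLE scaling, total counts, other filters, DESeq2 1.42.0, limma-voom (limma 3.58.1), a replicate block, each library left out and removal of mitochondrial genome genes; edgeR's legacy method was chosen after seeing the data. The scripts were tested on simulated data.

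Per-library values are given for the most abundant gene per length in each role, genes with an unadjusted p under 0.05, and Sod1, Sod2, Nfe2l2, Keap1, Nqo1 and Hmox1. Related lists name up to 3 genes with the smallest p, and Cat. Rbx1 was added after its values were seen. Sod3 was singled out after its values were seen. The genes, lists and offsets were chosen with earlier results of these data known.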

Additional observations from a re-analysis of the deposited data

How the results depend on the processing

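Under RLE scaling, both other filters on low counts, removal of mitochondrial genome genes, limma-voom and edgeR's legacy method, all 38 genes kept their direction and their side of the threshold. Genes called higher and lower over the whole table, 197 and 908, became 29 and 1389 with total counts alone, 1 and 0 with offsets by longest transcript, 83 and 141 by median transcript, and 748 and 1630 at an adjusted p under 0.1; higher calls were 493 with DESeq2 and 113 with limma-voom. Leaving out 1 library gave 0 to 688 higher and 0 to 1383 lower. Of the 38 genes, 1 higher became 0 with total counts alone or either offset, 4 with DESeq2, 6 at an adjusted p under 0.1 and 0 to 10 with 1 library left out. The related lists, 1 higher and 5 lower, became 0 and 10 with total counts alone, 0 and 0 with offsets by longest transcript, 0 and 1 by median transcript, 9 and 9 at an adjusted p under 0.1, and 0 to 10 and 0 to 9 with 1 library left out, and 6 were higher with DESeq2. The median of the 38 was 0.22 with total counts alone, 0.24 with offsets by longest transcript and 0.37 to 0.72 with 1 library left out.

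Same-numbered libraries did not deviate together (correlations 0.14, -0.53 and 0.03), and 1 of 6 libraries correlated best with its own number. The replicate block called 2 of the 38 higher, adding Prdx2 (0.94, adjusted p = 0.049), and 2 of the related lists higher. The replicate block with offsets called 0 higher and 0 lower in the whole table, in the 38 and in the lists, with a median of 0.23 for the 38.

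Signs turned with offsets by longest transcript, and then with the block beside them, for Gpx4 (-0.15, -0.12), Gpx7 (-0.10, -0.11), Gpx8 (-0.15, -0.16), Txn1 (-0.10, -0.11), Gstm1 (-0.18, -0.17), Mgst1 (-0.050, -0.050) and Mgst3 (-0.29, -0.30), and by median transcript for Txnrd1 (0.054). With total counts alone Gpx8 (-0.077), Gclm (-0.20), Mgst1 (-0.050) and Mgst3 (-0.078) turned. With 1 library left out, 7 genes turned at least once: Sod3 ran from -0.087 to 1.11 (below 0 without wild type 1, wild type 2 or knockout-labelled 3), Gclm from -0.028 to 0.12 (wild type 1), Keap1 from -0.25 to 0.11 (wild type 1 or knockout-labelled 1), Gpx8 from -0.060 to 0.34, Txn1 from -0.0023 to 0.44 and Nqo1 from -0.031 to 0.73 (knockout-labelled 1), and Mgst3 from -0.057 to 0.58 (wild type 3 or knockout-labelled 1). The difference in log2 ratio was 0.45 for Sod2 to Sod1 with the offsets, and with 1 library left out ran from -0.27 to 0.083 for Sod2 to Sod1, from -0.34 to 0.0086 for Glrx2 to Glrx, from -0.34 to -0.13 for Prdx3 to Prdx1, from 0.38 to 1.07 for Txn2 to Txn1 and from 0.30 to 0.68 for Txnrd2 to Txnrd1. The cause of these changes was not tested. Nqo1, Gpx7 and Gstp1 had the fewest counts of the set, which limits the precision of their values.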

Other observations

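Sod3 was high in the 3 libraries with the largest share of counts from the mitochondrial genome. That share was 40.7%, 39.3% and 54.3% in wild type and 39.1%, 54.3% and 56.5% in the knockout-labelled libraries, and Sod3 measured 81.9, 64.2 and 68.8 CPM in the libraries above 54% and 22.0, 23.8 and 16.6 CPM in the others. Gpx3, Gstm1 and Cat were also higher in each library above 54% than in each of the others, so this was not particular to Sod3. The Sod3 pattern was noticed after the values were seen.

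Gclm was the steadiest of the 38 genes within the knockout-labelled group, with an SD of 0.0433 CPM about a mean of 34.0 CPM, while Hmox1 ranged from 114 to 288 CPM over the same libraries.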
